A study of Saccharomyces cerevisiae with 19 samples.

Results

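The plasma membrane proton pump genes of budding yeast described here are PMA2, PMA1 and HSP30, 3 of the 5449 genes that the arrays tested. They were picked by symbol from the platform annotation and selected on measured values of these same arrays, the difference of PMA2 between the strains, so their strain differences are given as a description with no test. The tested strain is labelled as a sch9 deletion and is called the labelled mutant here; its 9 arrays cover culture times from 12 to 108 h at intervals of 12 h. The other strain is labelled wild type and was read on 10 arrays, from 12 to 120 h. Both strains came from frozen stocks, were grown overnight in SDC, a synthetic complete medium, were then diluted and shaken at 30 °C, and had no other treatment. The labels name neither the parent strain nor the marker of the deletion. Each array held total RNA of 1 strain at 1 time, so every p-value below measures a spread over times and not over separate cultures.

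Pma1 is a P-type ATPase that uses ATP to push protons out of the yeast cell, and the gradient it builds drives the uptake of sugars, amino acids and ions. It is essential and abundant in the plasma membrane, and glucose raises its activity through phosphorylation of its tail. Pma2 is a close relative that can also pump protons, is not essential and is normally made in small amounts. Hsp30 is a small membrane protein induced by heat, ethanol, weak acids and the end of sugar supply, and it lowers the activity of the pump. Sch9 is a protein kinase that acts below the TOR complex in nutrient signalling, and yeast without it survives longer in stationary culture.

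The values are log2 probe set signals, quantile-normalized over the 5449 genes unless called deposited, which gives every array the same distribution of values. SCH9, the gene labelled as deleted, lay between 10.07 and 10.59 in the labelled mutant arrays and between 10.43 and 11.26 in the wild-type arrays of the same times. Its mean difference was -0.52 ± 0.39 (SD, n = 9 times), lower at 8 of 9 times and 0.16 higher in the labelled mutant at 12 h. The SCH9 signal was thus not lost in the labelled mutant, and the labels do not say whether the probes lie inside the deleted part. Measures of RNA quality also differed. A 3' to 5' score was computed from 10 pairs of control probe sets and is called the degradation score below. It was 0.73 to 1.06 in the labelled mutant and 0.80 to 1.44 in the wild type, where its highest value was at 120 h. The labelled mutant value of 1.06 was at 24 h, where the wild type had 0.82, and all other labelled mutant arrays were at 0.95 or below. The 18S 3' control signal (deposited, log2) was 6.69 to 7.68 in the labelled mutant and 8.03 to 14.64 in the wild type, with all wild-type values above 10 from 60 h on. The part of RNA quality in the strain differences of the members was not tested.

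PMA2, the minor pump isoform (YPL036W, chromosome XVI), was at about the wild-type level at 12 h in the labelled mutant and far above it at every later time. In the labelled mutant its signals, in time order from 12 to 108 h, were 8.74, 12.57, 12.71, 12.21, 11.94, 11.44, 11.10, 11.51 and 11.02. In the wild type, from 12 to 120 h, they were 8.56, 8.68, 8.54, 8.62, 8.83, 8.75, 8.64, 9.01, 8.77 and 9.09. The 8 labelled mutant arrays from 24 h on all lay above the 10 wild-type arrays, and the labelled mutant array of 12 h lay among them. Fewer cells with the RNA and less RNA per cell cannot be told apart in such bulk samples.

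With quantile normalization and in the deposited values the gap between the strains was widest at 36 h, and it was smaller at the later times. Under median centring and cyclic loess it was widest at 24 h, at 3.98 in both, against 3.95 at 36 h in both. With quantile normalization the log2 difference of PMA2, labelled mutant minus wild type, was 0.19, 3.88 and 4.18 at 12, 24 and 36 h, the last an 18.1-fold ratio. At the times from 48 to 108 h it was 3.59, 3.11, 2.69, 2.46, 2.50 and 2.25, the last a 4.77-fold ratio. Over the 9 shared times the mean was 2.76 ± 1.18 (SD, n = 9), and without the 12 h arrays it was 3.08 ± 0.72 (SD, n = 8), an 8.48-fold ratio. The choice of the gene used this contrast, so nothing is read from its size. The other scalings gave means over the 9 times of 2.84 (deposited values), 2.59 (median centring) and 2.55 (cyclic loess), and under the last pair the 12 h difference was -0.03 and -0.07.

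Between 24 and 108 h the arrays of the strains did not overlap, with the labelled mutant higher, for 14.1% of all 5449 genes, and with the labelled mutant lower for 10.5%. PMA2 was of the first kind. PMA1 and HSP30 overlapped between the strains over those times with quantile normalization. PMA1 did not overlap in the deposited values, with 12.09 to 12.33 in the labelled mutant and 12.42 to 13.00 in the wild type, or under median centring, with 11.96 to 12.16 in the labelled mutant and 12.55 to 12.95 in the wild type. The shares of all genes were counted only with quantile normalization, so none stands beside the PMA1 separation under the other scalings. PMA1 and HSP30 were selected alongside PMA2, so these counts describe the members only.

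**Figure D1:**
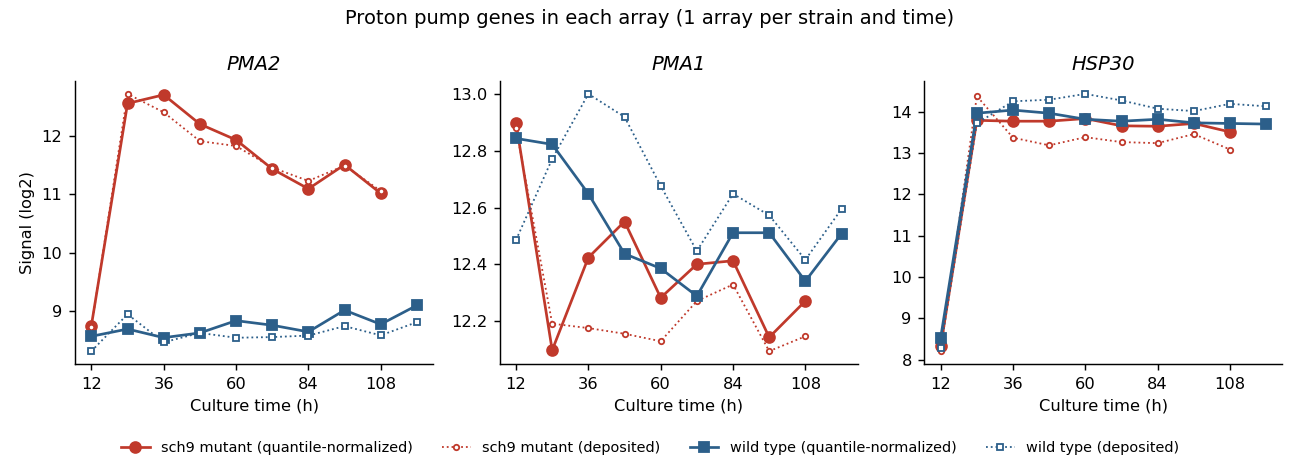
Signal of PMA2, PMA1 and HSP30 (log2, vertical axes on different ranges) in each array against culture time in hours, with the labelled sch9 mutant as circles and the wild type as squares; solid lines are quantile-normalized and dotted lines deposited values. PMA2 lies at 11.02 or above in the labelled mutant from 24 h on and at 9.09 or below in the wild type. PMA1 lies between 12.10 and 12.90 on the solid lines and between 12.09 and 13.00 on the dotted lines. HSP30 climbs in both strains between 12 and 24 h.

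The gap in PMA2 opened within 1 sampling interval. Its step between the arrays of 12 and 24 h was 3.82 in the labelled mutant, a 14.1-fold ratio and the 44th largest of 5449 genes, and 0.13 in the wild type, where it ranked 2269th. The median step of all genes was -0.03 in the labelled mutant and -0.02 in the wild type. Each step compares a pair of single arrays and has no replicate check. The labelled mutant array of 24 h, on which the steps of all members in that strain rest, had the highest degradation score of its strain. The part of RNA quality in these steps was not tested.

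After 36 h the PMA2 signal of the labelled mutant declined. Ordered by level with quantile normalization, its times ran 36, 24, 48, 60, 96, 72, 84, 108 and 12 h, and under the other 3 scalings the highest array was that of 24 h. The neighbours 36 and 24 h, 96 and 72 h, and 84 and 108 h differed by less than 0.18, the SD of the 9 wild-type arrays from 24 h on, and the other neighbours differed by more. No neighbours in the wild-type order, from 9.09 at 120 h to 8.54 at 36 h, differed by more than that SD. The SD comes from the wild-type arrays being ordered, so sorted neighbours there mostly fall below it whatever the order. It was not measured in the labelled mutant. No conclusion is drawn from such gaps, here or for PMA1 and HSP30 below. Between 36 and 108 h the log2 difference of PMA2, later minus earlier, was -1.70 in the labelled mutant, the 5th lowest of 5449 genes, against 0.23 in the wild type.

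The step of PMA2 after 12 h and its later decline ran in opposite directions, and a straight line through all times caught neither. Over all times none of the 9 slopes, 3 genes in the labelled mutant, in the wild type and in their difference, passed with limma, taken at 0.05 after the Benjamini-Hochberg adjustment over all genes. For PMA2 the slope was 0.064 per day in the labelled mutant (adjusted p = 0.862) and 0.093 in the wild type (adjusted p = 0.786), on the log2 scale. Among all genes 5.38% passed with a rise and 4.64% with a fall in the labelled mutant, and 4.81% with a rise and 6.46% with a fall in the wild type. The slope difference passed upward for 1.12% and downward for 1.74% of genes.

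With the 12 h arrays left out, a fit made into a result of its own after the data were seen, PMA2 fell in the labelled mutant by 0.49 log2 per day (SE 0.057, adjusted p = 2.01e-05). That slope was the 20th lowest of 5449 genes. In the wild type the slope of PMA2 was 0.097 (SE 0.048, adjusted p = 0.112). The slope difference, labelled mutant minus wild type, was -0.59 (SE 0.074, adjusted p = 5.54e-05) and the 31st lowest of all genes. The choice of PMA2 used its strain difference on these same arrays. The p-value and rank of this slope difference are therefore a description only. In this fit 14.4% of all genes passed with a rise and 14.3% with a fall in the labelled mutant, 20.8% with a rise and 20.8% with a fall in the wild type, and the slope difference passed upward for 14.6% and downward for 17.2%. PMA2 belonged to the 14.3% that fell in the labelled mutant and to the 17.2% whose slope difference was negative.

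The fall of PMA2 in the labelled mutant kept its call when any later time was left out, with slopes between -0.54 and -0.45 in 8 of 8 fits and adjusted p-values between 3.74e-05 and 0.000289. It also kept it under the deposited values, median centring and cyclic loess, with slopes between -0.47 and -0.45, and with the degradation score as a covariate, at -0.49. The wild-type slope of PMA2 passed under median centring (0.13, adjusted p = 0.0454) and cyclic loess (0.15, adjusted p = 0.0310). The direction in which most genes passed depended on the scaling in this fit. For the slope difference 795 genes passed upward and 937 downward, against 1818 and 262 in the deposited values and 546 and 1092 under median centring. In the labelled mutant 785 rose and 779 fell, against 691 and 375 in the deposited values. In the wild type 1131 rose and 1131 fell, against 213 and 2221 in the deposited values and 1660 and 804 under median centring.

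**Figure D2:**
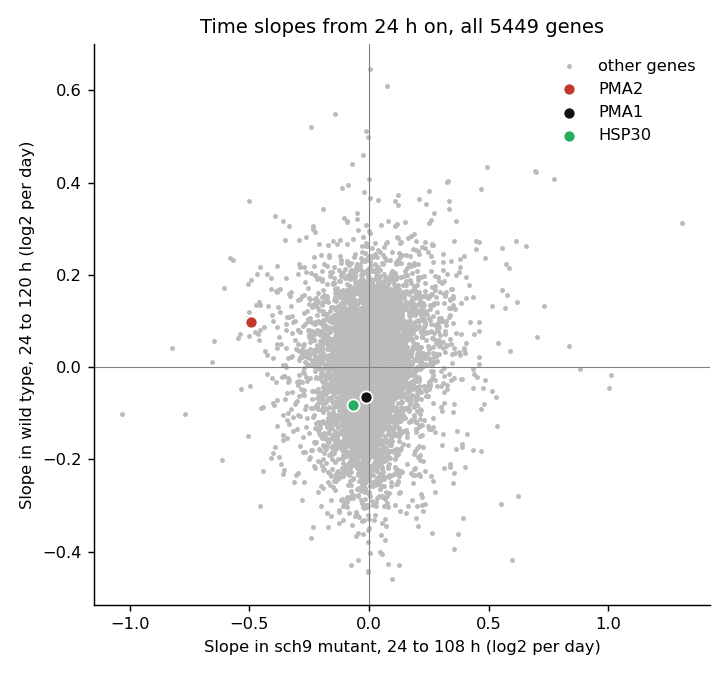
Time slopes from 24 h on in the labelled sch9 mutant (horizontal axis, 24 to 108 h) against the wild type (vertical axis, 24 to 120 h), both in log2 per day, with 1 point for each of 5449 genes. PMA2 lies far to the left, at -0.49 and 0.097, while PMA1 (-0.012 and -0.064) and HSP30 (-0.066 and -0.083) lie inside the main cloud.

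PMA1, the main pump (YGL008C, chromosome VII), kept a high signal in both strains at all times. Its labelled mutant signals from 12 to 108 h were 12.90, 12.10, 12.42, 12.55, 12.28, 12.40, 12.41, 12.14 and 12.27 in time order. Its wild-type signals from 12 to 120 h were 12.84, 12.82, 12.65, 12.44, 12.39, 12.29, 12.51, 12.51, 12.34 and 12.51. The array of 12 h was the highest in each strain. With quantile normalization the strains overlapped over the later times, and 24 h held the lowest labelled mutant array and the second highest wild-type array.

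The PMA1 difference at 24 h was -0.73, a ratio of 0.605, and at the other 8 times it lay between -0.37 and 0.11. In the deposited values it was -0.58 at 24 h and -0.83 at 36 h, and under median centring -0.39 and -0.83. The mean over the 9 times was -0.15 ± 0.27 (SD, n = 9), and the labelled mutant was lower at 6 of 9 times. How far PMA1 lay below the wild type depended on the scaling. The mean was -0.40 ± 0.37 in the deposited values, lower at 8 of 9 times, -0.65 ± 0.28 under median centring, lower at 9 of 9, and -0.09 ± 0.29 under cyclic loess, lower at 5 of 9. The median difference of all genes was 0.03 with quantile normalization, 0.17 in the deposited values, -0.09 with median centring and -0.01 with cyclic loess, so PMA1 lay below that median in each.

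Between 12 and 24 h PMA1 stepped by -0.80 in the labelled mutant and by -0.02 in the wild type, with the wild type at 12.44 by 48 h. In the deposited values these steps were -0.69 in the labelled mutant and 0.29 in the wild type, whose highest array was then that of 36 h, at 13.00. Below the 12 h array, the neighbours in the labelled mutant order of levels, from 12.55 at 48 h to 12.10 at 24 h, differed by less than 0.16, the SD of the 9 wild-type arrays from 24 h on. In the wild-type order only the gap between 24 and 36 h, 0.17, exceeded it. From 24 h on the slope was -0.012 per day in the labelled mutant (adjusted p = 0.881) and -0.064 in the wild type (adjusted p = 0.203). The difference of these slopes was 0.052 (SE 0.061, adjusted p = 0.548). The wild-type slope passed only in the deposited values among the scalings, at -0.11 (adjusted p = 0.0182). Over all times the PMA1 slopes were -0.085 in the labelled mutant (adjusted p = 0.281) and -0.084 in the wild type (adjusted p = 0.213).

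HSP30, the gene of the small membrane protein that restrains the pump (YCR021C, chromosome III), was low at 12 h and high at every later time in both strains. The labelled mutant signals from 12 to 108 h were 8.33, 13.79, 13.77, 13.77, 13.83, 13.66, 13.65, 13.72 and 13.51 in time order. The wild-type signals from 12 to 120 h were 8.53, 13.96, 14.04, 13.96, 13.82, 13.77, 13.82, 13.73, 13.72 and 13.70. The 12 h array of each strain stood apart from all its others, and the later arrays of the strains overlapped.

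The step of HSP30 between 12 and 24 h was 5.46 in the labelled mutant, a 44.0-fold ratio and the 6th largest of all genes. It was 5.43 in the wild type, a 43.2-fold ratio and the 3rd largest. Unlike PMA2, HSP30 thus made this step in both strains by about the same amount with quantile normalization. In the deposited values the steps were 6.17 in the labelled mutant and 5.44 in the wild type, under median centring 6.23 and 4.87, and under cyclic loess 5.51 and 4.96.

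The flat course of HSP30 in the labelled mutant after 24 h depended on the scaling. Its step between 24 and 36 h there was -0.02 with quantile normalization, -1.01 in the deposited values, -1.11 under median centring and -0.40 under cyclic loess. The wild-type steps were 0.08, 0.53, 0.61 and 0.10 in the same order. With quantile normalization the labelled mutant arrays from 24 h on spanned 0.32 and the wild-type arrays 0.34. Ordered by level, neighbouring times differed by less than 0.12, the SD of the 9 wild-type arrays, except for a gap of 0.14 between 84 and 108 h in the labelled mutant and of 0.15 between 48 and 60 h in the wild type. The strain difference over the 9 times was -0.15 ± 0.09 (SD, n = 9), lower in the labelled mutant at 8 of 9 times. It was -0.66 ± 0.60 in the deposited values, -0.91 ± 0.74 under median centring and -0.17 ± 0.22 under cyclic loess. At 24 h the sign turned with the scaling: the difference was -0.17 with quantile normalization and 0.66, 0.84 and 0.33 in the deposited values, under median centring and under cyclic loess. From 36 h to 108 h the deposited signals were 13.09 to 13.46 in the labelled mutant and 14.01 to 14.43 in the wild type, while the quantile-normalized ones were 13.51 to 13.83 and 13.72 to 14.04. The deposited values therefore separate the strains over those times and the quantile-normalized values do not. The share of all genes that the deposited values separate over those times was not counted.

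HSP30 fell slowly in the wild type from 24 h on, by 0.083 log2 per day (SE 0.022, adjusted p = 0.00708). In the labelled mutant its slope was -0.066 (SE 0.026, adjusted p = 0.0699), and the slope difference was 0.017 (SE 0.034, adjusted p = 0.749). The slope difference was -0.38 under median centring (adjusted p = 0.0264) and -0.14 under cyclic loess (adjusted p = 0.0244), where HSP30 also fell in the labelled mutant (-0.16, adjusted p = 0.00177). The wild-type call did not hold under any other scaling: the slope was 0.018 in the deposited values, 0.15 under median centring and -0.028 under cyclic loess. It was also lost with the degradation score as a covariate (-0.060, adjusted p = 0.513), a score that was higher late than early in the wild type. Over all times the slopes were 0.67 in the labelled mutant (adjusted p = 0.270) and 0.52 in the wild type (adjusted p = 0.330), set by the single 12 h array of each strain.

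**Figure D3:**
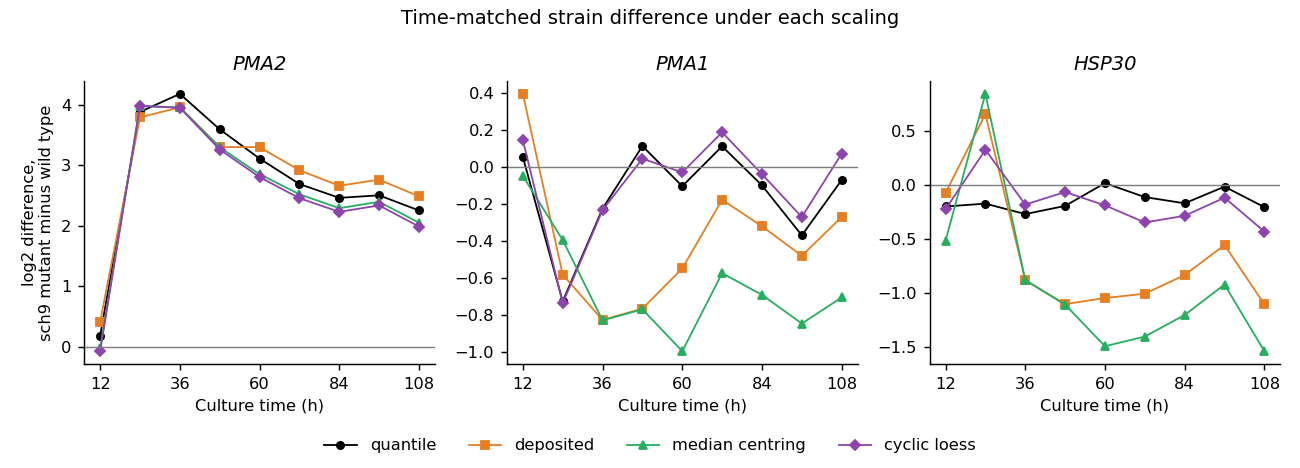
Time-matched log2 difference, labelled sch9 mutant minus wild type, of PMA2, PMA1 and HSP30 against culture time in hours, with 1 line for each of 4 scalings (quantile, deposited, median centring, cyclic loess). For PMA2 the lines lie close together, for PMA1 the median-centred line lies lowest on average (-0.65), and for HSP30 the lines part at 24 h, where quantile gives -0.17 and median centring 0.84.

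The genes with the profile most like each member were ranked by Pearson correlation over the 19 arrays among 4873 named genes, as a description. The arrays share their strain, time and scaling, so these values carry no test. PMA2 was closest to KIN1, a protein kinase gene (r = 0.981), RIM15, the gene of a kinase of stationary phase entry (r = 0.980), and YEN1, a DNA junction nuclease gene (r = 0.979). In all, 93 genes had r above 0.9 with PMA2. At 12 and 24 h RIM15 had signals of 9.15 and 10.41 in the labelled mutant, against 8.85 and 9.18 in the wild type, so its range was smaller than that of PMA2. At the same times KIN1 had 9.78 and 10.99 in the labelled mutant, against 9.69 and 9.75 in the wild type.

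**Figure D4:**
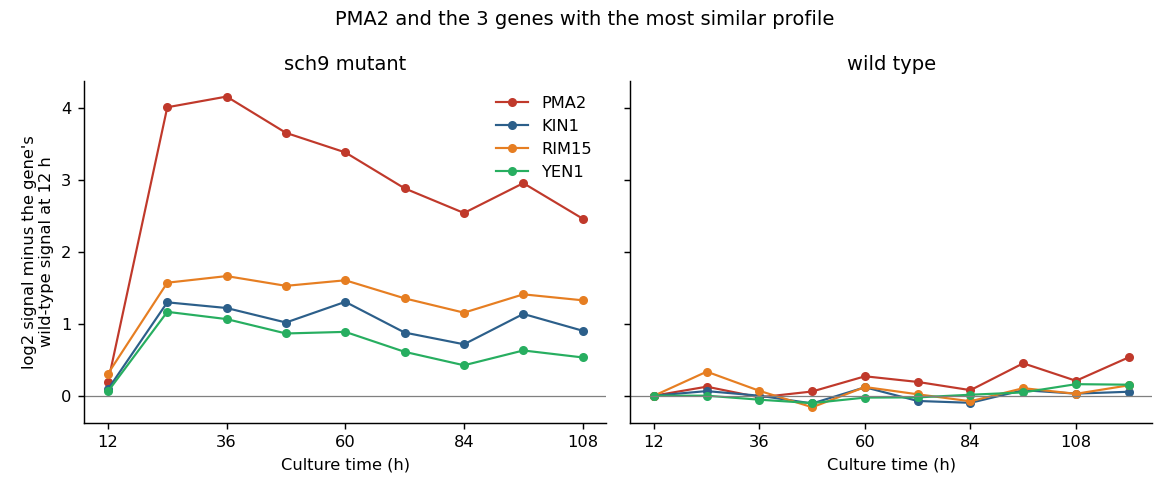
Signal of PMA2, KIN1, RIM15 and YEN1 in log2 units relative to the wild-type signal of the same gene at 12 h, against culture time in hours, in the labelled sch9 mutant (left) and the wild type (right). All 4 genes step up between 12 and 24 h in the labelled mutant, PMA2 by 3.82, and stay closer to 0 in the wild type.

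With the mean of each strain taken out first, so that only change with time counted, the closest genes to PMA2 were STF2, a hydrophilin gene (r = 0.953), TRR2, the mitochondrial thioredoxin reductase gene (r = 0.945), and TMA17, a proteasome assembly factor gene (r = 0.942). At 12 and 24 h STF2 had 10.82 and 13.52 in the labelled mutant, against 12.51 and 12.75 in the wild type. By the same measure 32 genes had r above 0.9 with PMA2.

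PMA1 had few genes with a like profile. With all arrays 1 gene, ASG1, a zinc cluster regulator gene, had r above 0.9 with it (r = 0.910), followed by FAP7, a gene of small ribosomal subunit maturation (r = 0.869), and MRPL32, a mitochondrial ribosomal protein gene (r = 0.858). With strain means out 4 genes had r above 0.9, and the closest were CAF16 (r = 0.939), ABD1, the mRNA cap methyltransferase gene (r = 0.907), and ASG1 (r = 0.904). For HSP30, 114 genes had r above 0.9, led by TMA10, a relative of STF2 (r = 0.996), IGD1, the gene of an inhibitor of glycogen debranching (r = 0.988), and ACS1, an acetyl-CoA synthetase gene (r = 0.988). With strain means out 228 genes had r above 0.9, and TMA10 (r = 0.997), IGD1 (r = 0.994) and SPG1, a gene needed in stationary phase (r = 0.994), were closest. TMA10 had 7.97 and 13.13 at 12 and 24 h in the labelled mutant, against 8.63 and 13.17 in the wild type, a step like that of HSP30 in both strains. From 24 h on HSP30 spanned only 0.32 in the labelled mutant and 0.34 in the wild type. Its correlations and their counts therefore rest largely on the 12 h array of each strain and say little of the later times.

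The nearest measured genes on either side of each member, looked up after the members' levels were seen in the annotation of the S288C genome, did not share the PMA2 pattern. EGD1, a gene of the nascent polypeptide complex beside PMA2, had a strain difference of 0.38 (SE 0.08, adjusted p = 0.00189), and the uncharacterized YPL034W on the other side had -0.33 (SE 0.06, adjusted p = 0.000701). Their steps between 12 and 24 h in the labelled mutant were -1.08 for EGD1 and 0.20 for YPL034W, against 3.82 for PMA2. Beside PMA1, LEU1, a leucine synthesis gene, differed by -0.39 (adjusted p = 0.0131), and YGL007C-A by -1.33 (adjusted p = 1.94e-05). Beside HSP30, HTL1, a chromatin remodelling gene, had a difference of 0.08 (adjusted p = 0.495), and YCR023C had -0.54 (adjusted p = 0.00164). The HSP30 step of 5.46 in the labelled mutant stood against -0.65 for HTL1 and 0.23 for YCR023C.

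Genes that act on the pump or work beside it were taken from 8 lists with 74 genes, 70 of them measured. For the strain difference 23 were higher in the labelled mutant, 19 lower and 28 did not pass, so that 60.0% passed. Among all 5449 genes 32.4% were higher and 26.8% lower in the labelled mutant, so the listed genes passed about as often as genes at large. Their median difference was 0.08, against 0.03 for all genes. The split of all calls moved with the scaling: 54.8% of the passing genes were higher in the labelled mutant with quantile normalization, 66.3% in the deposited values and 38.8% under median centring. Without time blocks PMP2, AST1, SPI1, VMA5, VMA1 and PHO89 of the genes named below did not pass. Over all times 9 of the 70 genes rose and 6 fell in the labelled mutant, against 5.38% and 4.64% of all genes. In the wild type 7 rose and 8 fell, against 4.81% and 6.46%. Together these were 21.4% of the listed genes in each strain, a larger share than among all genes. The lists were chosen with earlier results known, and this excess was not tested. From 24 h on 12 rose and 16 fell in the labelled mutant, against 14.4% and 14.3% of all genes. In the wild type 16 rose and 12 fell from 24 h on, against 20.8% and 20.8% of all genes. Together these were 40.0% of the listed genes in each strain. The slope difference from 24 h on passed upward for 7 and downward for 18 listed genes, 35.7% together. Among all genes 14.6% passed upward and 17.2% downward. With the degradation score as a covariate limma passed 0 genes for the wild-type slope over all times (574 at an unadjusted p under 0.05) and 0 for the slope difference (435), so every such call named below was lost in that fit.

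Among the kinases, the phosphatase and the small subunits of the pump, 2 of 7 genes were higher in the labelled mutant and 2 lower. YCK1 and YCK2, a pair of casein kinases at the plasma membrane, were higher by 0.36 (SE 0.09, adjusted p = 0.00344) and 0.31 (SE 0.06, adjusted p = 0.00120), at 9 of 9 times each. PMP1 and PMP2, small proteolipids that associate with the pump, were lower, with differences of -0.26 (SE 0.08, adjusted p = 0.0142) and -0.22 (SE 0.06, adjusted p = 0.0127), at 8 of 9 times each. PMP1 (-0.10) and PMP2 (-0.14) did not pass with the degradation score as a covariate. PTK2 and HRK1, kinases that activate the pump, had differences of 0.19 (adjusted p = 0.196) and -0.29 (adjusted p = 0.0734), and GLC7, a phosphatase gene, had 0.11 (adjusted p = 0.173). PTK2 passed in the deposited values at 0.33, and HRK1 passed there (-0.50), under median centring (-0.76), with the degradation score as a covariate (-0.50), and without 84 h (-0.36) or without 96 h (-0.35). YCK1 did not pass under median centring (0.22). The median of the list was 0.11, against 0.03 for all genes.

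Of the genes that fold, export or deliver the pump, 1 of the 4 measured was higher in the labelled mutant and 2 were lower. AST2, a relative of AST1, was higher by 0.78 (SE 0.12, adjusted p = 0.000197). AST1, whose product helps the pump reach the cell surface, was lower, at -0.35 (SE 0.11, adjusted p = 0.0180), a call lost in the deposited values (-0.22) and with the degradation score (-0.35, adjusted p = 0.0774). SFB3, also called LST1, the gene of a vesicle coat protein that loads the pump at the endoplasmic reticulum, was lower, at -0.71 (SE 0.08, adjusted p = 2.97e-05) and at 9 of 9 times. SOP4, a gene of pump export, had -0.06 (adjusted p = 0.377). The paralogs AST2 and AST1 thus stood on opposite sides of the wild type, and the list median was -0.20. EXP1 and PSG1 were not analysed here.

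The transcription factors of the pump and of the weak acid genes had 3 of 9 higher in the labelled mutant, 1 lower and 5 that did not pass, with a median of 0.24. MSN2 and MSN4, general stress factors, went opposite ways: MSN2 was higher by 0.65 (SE 0.13, adjusted p = 0.00121) and MSN4 was lower, at -0.94 (SE 0.21, adjusted p = 0.00249). MSN4 did not pass with the degradation score as a covariate (-0.38, adjusted p = 0.0591). HAA1, the weak acid regulator, was higher by 0.46 (SE 0.09, adjusted p = 0.00132). MSN2 also rose with time in the labelled mutant by 0.17 per day (adjusted p = 0.00442) and fell in the wild type by 0.14 per day (adjusted p = 0.00607), a slope difference of 0.31 (adjusted p = 0.000929). GCR1, which drives glycolytic genes and PMA1, fell in the labelled mutant by 0.29 per day (adjusted p = 0.00462), with a slope difference of -0.36 (adjusted p = 0.0189). The MSN2 rise did not pass in the deposited values (0.18), nor the GCR1 slope difference per doubling of hours (-0.41) or without 24 h (-0.31), 84 h (-0.34) or 108 h (-0.37).

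Hsp30 has a pair of homologous membrane proteins. MRH1 was lower in the labelled mutant, at -0.60 (SE 0.11, adjusted p = 0.000837) and at 9 of 9 times. YRO2 had -0.08 (SE 0.09, adjusted p = 0.441), 0.0036 without 12 h, and it passed in the deposited values (-0.45) and under median centring (-0.71).

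Of 12 weak acid response genes 2 were higher in the labelled mutant, 5 lower and 5 did not pass, with a median of -0.26. GRE1, a hydrophilin gene, was higher by 2.84 (SE 0.40, adjusted p = 0.000134), at 8 of 9 times. AZR1, a gene of a drug and acetic acid exporter, was higher by 0.26 (SE 0.05, adjusted p = 0.000863) with quantile normalization, but was -0.15 in the deposited values and -0.40 under median centring. Its mean signals were low, 7.03 in the labelled mutant and 6.77 in the wild type. With dim probe sets left out AZR1 was not tested, and 1 gene of this list was higher. STP3, a zinc finger gene, and SPI1, a cell wall protein gene, were lower, at -0.69 (SE 0.06, adjusted p = 1.17e-05) and -0.44 (SE 0.08, adjusted p = 0.000602). Over all times TPO3, a polyamine exporter gene, rose in the wild type by 0.38 per day (adjusted p = 0.0154), a call lost in the deposited values (0.30), from 36 h on (0.14) and with array weights (0.13), and PDR12, the exporter of weak acid anions, rose in the labelled mutant by 0.60 per day (adjusted p = 0.00582). The lower count was 8 in the deposited values and 9 under median centring.

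The other P-type ATPases, the superfamily of the pump, had 8 of 12 measured genes higher in the labelled mutant and none lower, with a median of 0.38. CCC2, the copper pump of the Golgi, was higher by 1.28 (SE 0.15, adjusted p = 3.87e-05), and DNF1, a lipid flippase of the plasma membrane, by 0.97 (SE 0.13, adjusted p = 9.26e-05). Under median centring 6 genes of this list were higher and 2 lower, and with the degradation score as a covariate 5 were higher and 1 lower. Over all times PCA1, a cadmium exporter gene, rose in the labelled mutant by 0.43 per day (adjusted p = 0.00266) and PMC1, the vacuolar calcium pump, rose in the wild type by 0.19 per day (adjusted p = 0.0368). PMC1 did not pass in the deposited values (0.18) or without 36, 48, 72, 84, 96, 108 or 120 h, with slopes between 0.17 and 0.20. ENA1 and ENA2 were not analysed here, and ENA5 is uncertain because its probe set reads shared sequence.

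Among 11 genes of potassium and sodium transport and of the membrane potential 2 were higher, 5 lower and 4 did not pass, with a median of -0.09. TRK1, the main potassium importer, was higher by 0.54 (SE 0.09, adjusted p = 0.000504), and PHO89, a sodium and phosphate cotransporter gene, by 0.71 (SE 0.29, adjusted p = 0.0499). PHO89 did not pass under the other 3 scalings, with differences of 0.51 to 0.76, with the degradation score (0.10), or without 36, 60, 72, 84, 96 or 108 h, where the lowest difference was 0.50 without 96 h. Its mean signals were low, 8.75 in the labelled mutant and 8.04 in the wild type. With dim probe sets left out PHO89 was not tested, and 1 gene of this list was higher. TOK1, the outward potassium channel, and QDR2, a multidrug exporter linked to potassium uptake, were lower at 9 of 9 times, at -1.17 (SE 0.12, adjusted p = 1.71e-05) and -1.36 (SE 0.14, adjusted p = 2.57e-05). With time PHO89 rose in the labelled mutant by 0.72 per day (adjusted p = 0.000816), with a slope difference of 0.71 (adjusted p = 0.0175), and TRK2, a second potassium importer, rose in the wild type by 0.22 (adjusted p = 0.0145). The slope difference of PHO89 did not pass per doubling of hours (0.74) or without 96 h (0.65), 108 h (0.67) or 120 h (0.62), nor the rise of TRK2 in the deposited values (0.15).

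The vacuolar proton ATPase, which acidifies the vacuole, had 5 of 15 subunit genes higher in the labelled mutant, 3 lower and 7 that did not pass, with a median of 0.11. VMA8 was higher by 0.57 (SE 0.08, adjusted p = 0.000136) and VMA3, a ring subunit, by 0.42 (SE 0.09, adjusted p = 0.00220). VMA5 was lower, at -0.40 (SE 0.07, adjusted p = 0.000427), and VMA1, the catalytic subunit, at -0.22 (SE 0.06, adjusted p = 0.00768). The direction of this list depended on the scaling: 1 was higher and 3 lower in the deposited values, 1 and 6 under median centring, and 8 and 2 under cyclic loess, and VMA3 was -0.13 under median centring and did not pass in the deposited values (0.12). With the degradation score VMA3 (0.23, adjusted p = 0.0580) and VMA1 (-0.11, adjusted p = 0.143) did not pass, and VMA1 also missed under cyclic loess (-0.14). Over all times VMA3 fell in the wild type by 0.17 per day (adjusted p = 0.0154) and VMA10 in the labelled mutant by 0.23 per day (adjusted p = 0.000766), with a slope difference of -0.19 (adjusted p = 0.0369). The fall of VMA3 was lost under median centring (-0.075) and from 36 h on (-0.054), and the slope difference of VMA10 in the deposited values (-0.21), under cyclic loess (-0.20) and without any one time from 24 to 120 h (-0.23 to -0.19).

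**Figure D5:**
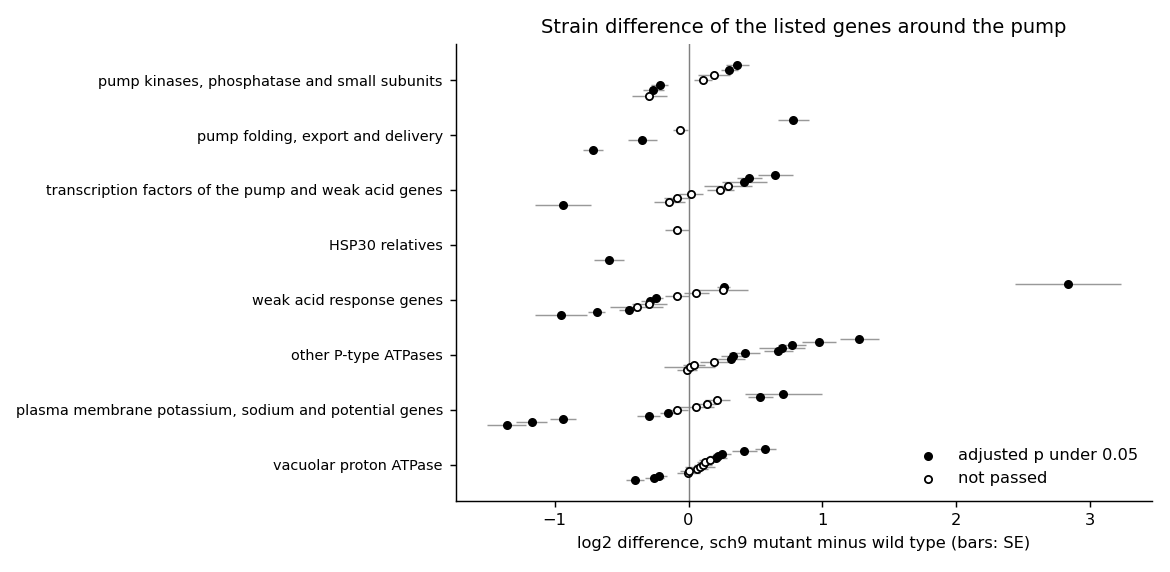
Strain difference of the measured genes of the 8 lists (log2, labelled sch9 mutant minus wild type, horizontal axis), 1 point per gene with its standard error as a bar; filled points passed with limma at an adjusted p under 0.05 and open points did not. Most P-type ATPase genes lie to the right of 0 and reach 1.28, the potassium and sodium genes reach -1.36, and GRE1 stands apart at 2.84.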

How the data were processed

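Total RNA was read on Affymetrix Yeast 2.0 arrays, 1 per strain and time. The deposited values are log2 probe set summaries with column medians of 9.44 to 10.05. No label or file header names the software or the normalization, and per the labels the authors left out the labelled mutant array of 120 h, which was not used. Of 5814 probe sets, 51 were controls and 5498 had a gene. The brightest probe set on average stood for each of the 47 genes that had more than 1, which left 5449 genes. Because the column medians differed by over 0.1, values were quantile-normalized over these genes. limma 3.58.1 in R 4.3.3 fitted linear time trends (19 arrays, 15 residual degrees of freedom) and the strain difference with time as a block (18 arrays, 8 residual degrees of freedom), with the Benjamini-Hochberg adjustment over all 5449 genes. The number of arrays limits the precision. All 3 members passed the filter on dim probe sets (4087 genes kept), and none of their probe sets is marked as reading shared sequence. That filter used the mean over all 19 arrays, so PMA2 passed it with its high labelled mutant arrays included. It does not vouch for the low signals of PMA2 in the wild type from 24 h on (8.54 to 9.09). Nor does it for those of HSP30 at 12 h (8.33 in the labelled mutant and 8.53 in the wild type). The fits were tested on simulated data.

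The members, the 8 gene lists and the rule for naming genes were chosen with earlier results of these data known. The rule named all members, SCH9, every gene of the lists on pump kinases, pump export and HSP30 relatives, up to 2 genes per direction of the other lists by strain difference and 1 per direction and time trend, and the 3 genes most correlated with each member. Alternatives were median centring, cyclic loess or no further scaling of the deposited values, weights per array, 36 h and later, log2 of hours, no time blocks, dim probe sets left out, a covariate for the 3' to 5' degradation score of the controls and each time left out. The fits from 24 h on as results of their own, with their scalings, score and left-out times, and the neighbouring genes were added after the data were seen. Promoter sequences were not analysed here.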

Additional observations from a re-analysis of the deposited data

Results flagged for a closer look

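Each strain was checked for an array far from the others of the same gene. Chance flags about 1 in 20 groups of independent values in such a check. The arrays here are successive times, so that rate does not hold for them. The flags at 12 h restate the step between 12 and 24 h given above. PMA2 at 12 h in the labelled mutant, at 8.74, was the lowest of 9 arrays and stood apart from the rest. HSP30 at 12 h stood apart in both strains, at 8.33 in the labelled mutant (lowest of 9 arrays) and 8.53 in the wild type (lowest of 10 arrays). The slope of PMA2 from 24 h on differed between the strains by -0.59 log2 per day, labelled mutant minus wild type, in the limma test of that difference (adjusted p = 5.54e-05). The choice of PMA2 used the strain difference on these same arrays, so this flag is a description and no independent result.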

How the results depend on the processing

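Of the slopes over all times, those of HSP30 in both strains and of PMA2 in the labelled mutant turned sign without 12 h, while the wild-type slope of PMA2 was 0.097 without it, against 0.093. From 36 h on the slope of PMA2 was -0.52 in the labelled mutant, with a slope difference of -0.64, and that of HSP30 was -0.077 in the labelled mutant and -0.091 in the wild type. Array weights gave -0.52 for PMA2 and -0.062 for HSP30 in the labelled mutant, -0.039 for HSP30 in the wild type, and slope differences of -0.63 for PMA2 and -0.022 for HSP30. Per doubling of hours HSP30 passed in both strains, at 1.24 in the labelled mutant and 1.08 in the wild type, and the slope differences were 0.25 for PMA2 and 0.012 for PMA1. With the degradation score the wild-type slopes were -0.52 for PMA2 and 0.12 for PMA1, and the slope difference of PMA2 was 0.52. The slope difference was 0.056 for PMA2 and -0.10 for HSP30 in the deposited values, 0.021 for PMA1 under cyclic loess and -0.20 for HSP30 under median centring, where the wild-type slope of PMA1 was 0.012. Leaving out single times moved the labelled mutant slope of PMA2 from -0.49 to 0.23 and that of HSP30 from -0.066 to 0.90. The wild-type slope of HSP30 moved from -0.083 to 0.70. The slope difference of PMA2 moved from -0.59 to 0.12 and turned sign without 24, 36, 48 or 108 h. That of PMA1 moved from -0.073 to 0.052 and turned sign without 12, 48, 60, 96 or 120 h.

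In the fits from 24 h on, the calls of PMA2 in the labelled mutant and for the slope difference held under all alternatives run. With the score as a covariate the slope difference was -0.56 (SE 0.130) and came closer to the threshold. Its limma adjusted p was 0.0289, against 5.54e-05 without the score. The wild-type slope of PMA2 passed under median centring (0.13) and cyclic loess (0.15). The wild-type slope of PMA1 was -0.11 in the deposited values, 0.026 under median centring and 0.11 with the score, and its labelled mutant slope was 0.0044 under cyclic loess and -0.082 to 0.015 with single times left out. Its slope difference was -0.053 under median centring, -0.13 with the score and -0.061 to 0.086 with single times left out. The wild-type slope of HSP30 was 0.018, 0.15, -0.028 and -0.060 in the deposited values, under median centring, under cyclic loess and with the score, and its labelled mutant slope was -0.16 under cyclic loess. The slope difference of HSP30 was -0.22, -0.38, -0.14 and -0.0075 under the same 4 settings and passed under median centring and cyclic loess. The causes of these moves were not tested.

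The number of genes passing over all times was 546 in the labelled mutant, 614 in the wild type and 156 for the slope difference. It was 1228, 2430 and 1617 from 36 h on, 1440, 1285 and 280 per doubling of hours, 1657, 1603 and 1533 with array weights, and 282 to 1564, 306 to 2262 and 58 to 1732 with single times left out. With dim probe sets left out, so that fewer genes were tested, 374 passed in the wild type. With the score as a covariate limma passed 0 genes in the wild type and 0 for the slope difference, with 574 and 435 at an unadjusted p under 0.05; from 24 h on the counts were 292 in the wild type and 169 for the slope difference, against 2262 and 1732.

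For the strain difference 14 listed genes were higher under median centring, against 23, and 10 lower without time blocks, against 19. AZR1 turned to -0.15 in the deposited values and -0.40 under median centring, GLC7 to -0.15 and VMA3 to -0.13 under median centring, and SOP4 to 0.19 in the deposited values; YRO2 ran from -0.11 to 0.0036 with single times left out. As a description, PMA1 was at -0.65 under median centring and HSP30 at -0.66 in the deposited values and -0.91 under median centring. The strain comparison was paired by culture time, and the labels give no replicate numbers by which to block otherwise.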
